A study of Mus musculus with 24 samples.

Results

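The comparison described here set organoids given dFz7-21 for 6 h against organoids given the control peptide Fz7-21S for 6 h. It used the 8 libraries whose titles carry these names, 4 per peptide, of the 24 in the series, and these 8 were fitted on their own over all genes. Organoids are small self-organised cultures, here of primary mouse small intestine, in which stem cells and the lineages they form grow side by side. The remaining 16 libraries were dFz7-21 and Fz7-21S at 24 h and the vehicle DMSO at 6 h and 24 h, with 4 libraries in each group. Polyadenylated RNA was sequenced. According to the series text, dFz7-21 is a peptide blocker of Frizzled 7. The labels give no genotype, strain or age of the mice, no dose, no medium and nothing on Fz7-21S beyond its name. Whether replicates are separate cultures or animals is likewise not said. P-values therefore reflect only how far these libraries vary, and that variation may be technical.

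Frizzled proteins are the cell surface receptors of Wnt ligands. In the crypt of the small intestine, Wnt signals stabilise beta-catenin, which acts with TCF/LEF factors to keep Lgr5-expressing stem cells. R-spondins and the receptor Lgr5 raise this signal, and the ligases Rnf43 and Znrf3 lower it by removing Frizzled from the membrane. Bone morphogenetic proteins (BMP) act in the opposite gradient, highest towards the villus, where Smad proteins switch on genes such as the Id family as cells differentiate.

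Each of the 8 libraries held 21.5 to 27.4 M counts, and a count of 3 corresponded to 0.109 to 0.139 CPM (counts per 1 M of the library total, the scale of all CPM in this paragraph). A count was found for 19257 to 19648 genes with dFz7-21 and 18618 to 18966 with Fz7-21S. Mitochondrial genes held 0.663% to 0.822% of the counts with dFz7-21 and 0.417% to 0.635% with Fz7-21S, and the 20 most abundant genes 5.41% to 5.50% with dFz7-21 and 5.07% to 5.33% with Fz7-21S. The groups did not overlap in these 3 measures. The labels name intestinal epithelium, and all 15 of its markers were read, with Krt19, a keratin, reaching 5145 CPM. Of 20 mesenchymal markers, 16 stayed under 1 CPM in all 8 libraries, and Dcn and Lum had 0 counts. Of 19 immune markers, 16 stayed under 1 CPM, with Cd4, Tyrobp and Gzmb at 0. Of 20 endothelial, glial and neuronal markers, 13 stayed under 1 CPM, with Cdh5, Emcn and Sox10 at 0. Summed mesenchymal markers came to 14.3 to 17.0 CPM with dFz7-21 and 11.6 to 14.8 CPM with Fz7-21S, and summed immune markers to 15.1 to 16.9 CPM with dFz7-21 and 11.9 to 15.7 CPM with Fz7-21S. Endothelial, glial and neuronal markers summed to 94.6 to 102 CPM with dFz7-21 and 89.5 to 98.7 CPM with Fz7-21S. Epithelial markers summed to 25144 to 25878 CPM with dFz7-21 and 23327 to 24277 CPM with Fz7-21S. Of the 15, 9 (60%) were called higher and 1 (6.67%) lower, against 10.7% and 11.0% among all genes. The part of these differences in the results below was not tested. In bulk samples, fewer cells of a type and less RNA per cell cannot be told apart.

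At 6 h, Lgr5 and many other stem cell transcripts were lower in dFz7-21 organoids, and the Id genes and other BMP targets were higher. Of 14537 genes tested, 3159 (21.7%) passed an adjusted p of 0.05 in edgeR's quasi-likelihood test, with 1561 (10.7%) higher and 1598 (11.0%) lower in dFz7-21 organoids. Most of these differences were small: the median size among called genes was 0.23 on the log2 scale, and 61 genes were at least 2-fold higher and 29 at least 2-fold lower. The 4 and 4 values did not overlap in 22.6% of the genes tested, and in 2585 of the called genes. The 15 largest rises and 15 largest falls named below were picked from called genes without such overlap. For those genes the lack of overlap was thus a condition of the choice and no separate result. Levels from here on are TMM-normalised CPM. On principal component 1, which held 32.8% of the variance, the dFz7-21 libraries lay between -17.0 and -11.2 and the Fz7-21S libraries between 9.51 and 20.3. When all 24 libraries shared 1 estimate of the spread, 1086 genes were called, 495 higher and 591 lower. When a change had to exceed 1.2-fold, 312 were called, 150 higher and 162 lower.

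**Figure D1:**
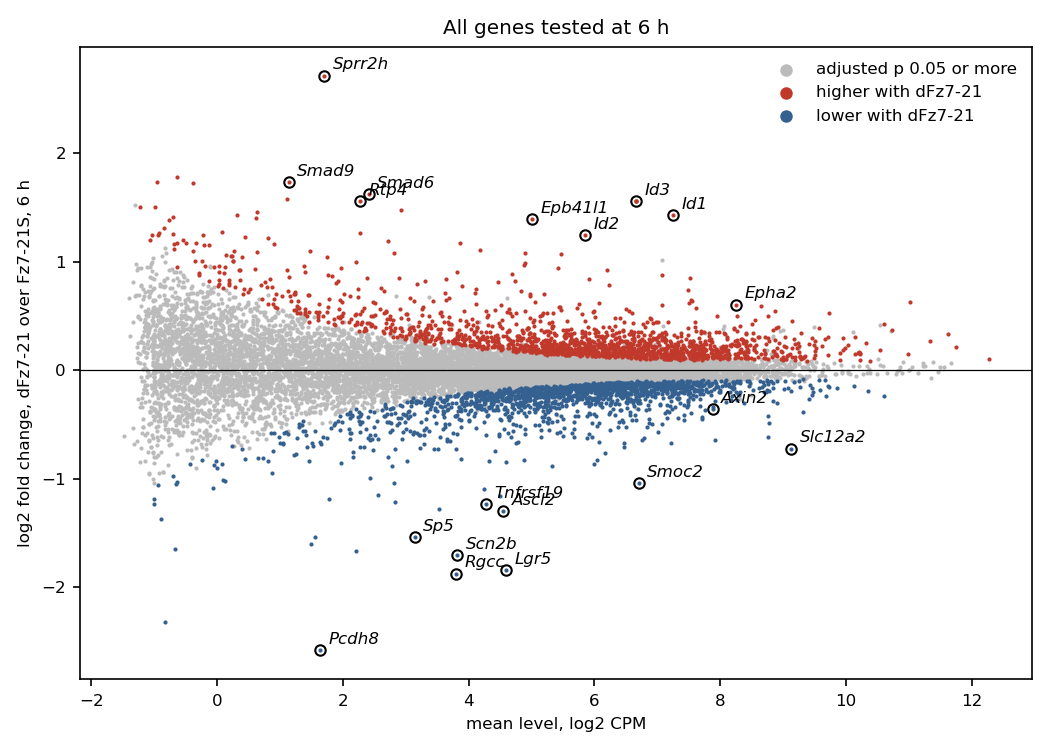
Each point is a gene tested at 6 h, by its mean level (log2 CPM) and its log2 fold change, dFz7-21 over Fz7-21S, with called genes coloured by direction. Pcdh8 and Lgr5 lie far below the line at -2.58 and -1.84, Sprr2h and Id3 far above it at 2.71 and 1.56, and most called genes lie close to it.

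Lgr5, the R-spondin receptor that marks crypt base stem cells, is gene 14160 at chr10:115450314-115587780 of GRCm38. It had 10.2, 11.3, 10.1 and 11.0 CPM in the dFz7-21 libraries, against 35.6, 44.3, 36.7 and 35.9 CPM in the Fz7-21S libraries. All dFz7-21 values lay far below all Fz7-21S values. The mean was 10.6 ± 0.625 CPM with dFz7-21 and 38.1 ± 4.15 CPM with Fz7-21S (SD, n = 4 each), a log2 fold change of -1.84 ± 0.08 (SE), or 3.58-fold lower, with an adjusted p of 1.06e-17. The 4 DMSO libraries at 6 h, scaled together with all 24 libraries, held 38.6 to 50.4 CPM, above every dFz7-21 library.

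The steepest fall among the named genes was in Pcdh8, a protocadherin of cell adhesion. It had 0.920, 0.903, 0.993 and 0.715 CPM with dFz7-21, against 4.82, 4.85, 5.03 and 6.47 CPM with Fz7-21S, and the groups did not overlap. Its level was 5.99-fold lower (log2 fold change -2.58 ± 0.18, adjusted p 3.2e-12). Ascl2 encodes a transcription factor of crypt stem cells that is switched on by Wnt. It had 11.1, 15.4, 11.8 and 16.2 CPM with dFz7-21, against 31.3, 33.1, 32.9 and 36.5 CPM with Fz7-21S, again without overlap (log2 fold change -1.30 ± 0.10, adjusted p 4.32e-08). Smoc2, a secreted matricellular protein and stem cell marker, averaged 68.4 ± 3.17 CPM with dFz7-21 and 141 ± 4.79 CPM with Fz7-21S (log2 fold change -1.04 ± 0.04, adjusted p 2.71e-18). Its dFz7-21 values spread from 65.4 to 72.7 CPM and its Fz7-21S values from 135 to 145 CPM.

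**Figure D2:**
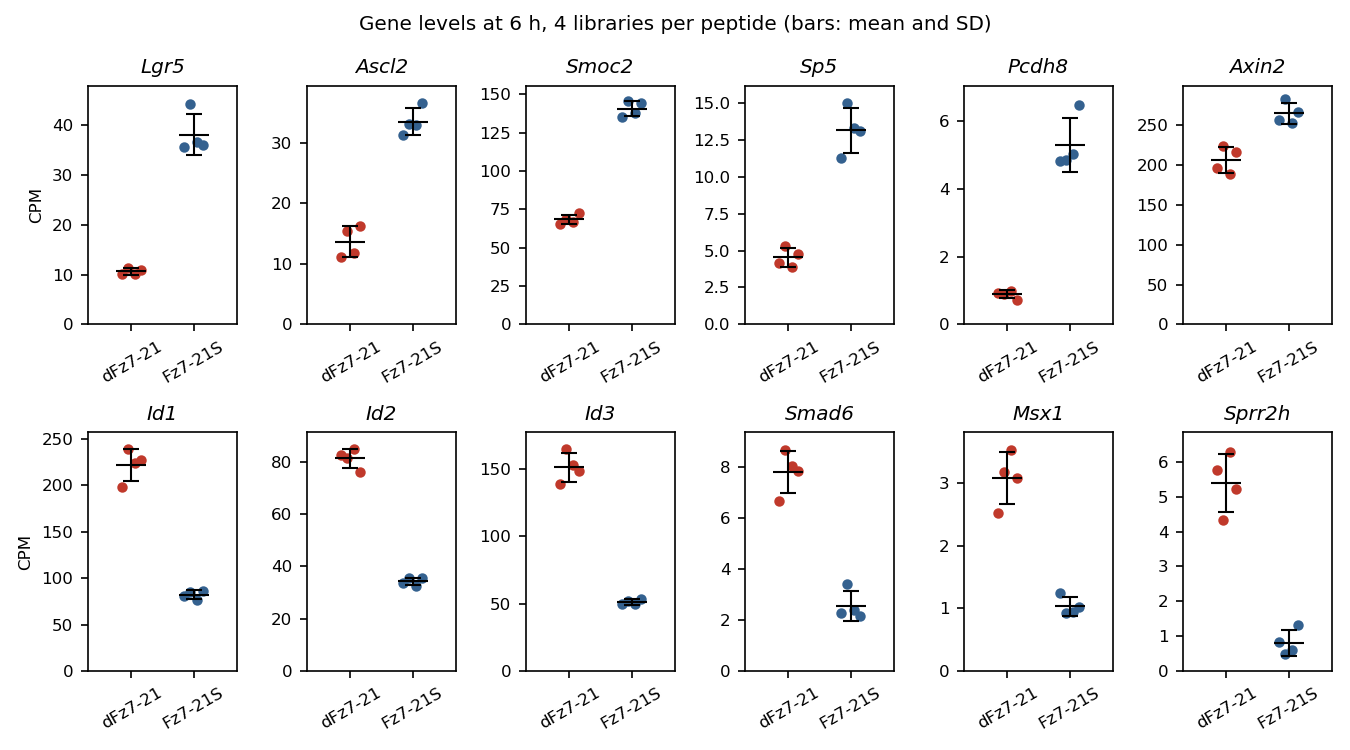
Levels (CPM) of 12 genes at 6 h, 1 point per library, with dFz7-21 left of Fz7-21S and bars for the mean and SD. In each panel the 4 dFz7-21 points lie all below (Lgr5, Ascl2, Smoc2, Sp5, Pcdh8, Axin2) or all above (Id1, Id2, Id3, Smad6, Msx1, Sprr2h) the 4 Fz7-21S points. For genes among the 15 largest rises or falls, this separation was a condition of their choice.

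Of 37 tested genes on a list of Lgr5 stem cell genes, 30 were lower and 2 higher, against 11.0% lower and 10.7% higher among all genes, and the list's median log2 fold change was -0.53, against 0.00 over all genes. The steepest falls after Lgr5 were in Scn2b, a sodium channel subunit (-1.70 ± 0.09), and Ptpro, a receptor tyrosine phosphatase (-1.66 ± 0.15). Scn2b overlaps the gene Gm10684, and since the strand of counting is not given in the sources used here their reads cannot be told apart. The 2 members that rose were Cd44, a hyaluronan receptor (0.11 ± 0.03, adjusted p 0.0123), and Clca3b, of the chloride channel accessory family (0.15 ± 0.03, adjusted p 0.000652), and neither call held with all 24 libraries in the fit. Olfm4, an abundant secreted stem cell marker, moved little at this time. Its 4 values were 1078, 1219, 1300 and 1257 CPM with dFz7-21, against 1373, 1398, 1448 and 1325 CPM with Fz7-21S, which did not overlap. The log2 fold change was -0.19 ± 0.05 (adjusted p 0.00813), and this call was lost with all 24 libraries in the fit (adjusted p 0.511).

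Genes that beta-catenin and TCF are known to switch on fell unevenly. Of 28 tested Wnt target genes, 16 (57.1%) were lower and 4 (14.3%) higher, against 11.0% and 10.7% among all genes. Their median log2 fold change was -0.21. Sp5, a transcription factor and Wnt target, is gene 64406 at chr2:70474923-70477726. It had 4.16, 5.34, 3.90 and 4.78 CPM with dFz7-21, against 11.3, 14.98, 13.3 and 13.1 CPM with Fz7-21S, with a clear gap between the groups. Its log2 fold change was -1.54 ± 0.11 (adjusted p 5.7e-12). Axin2, the negative feedback scaffold often used as a Wnt readout, had 197, 224, 189 and 216 CPM with dFz7-21, against 257, 283, 253 and 267 CPM with Fz7-21S. These values did not overlap, but the fall was 1.28-fold (log2 fold change -0.36 ± 0.05, adjusted p 2.01e-05). Tnfrsf19, a TNF receptor family member and Wnt target, fell by 1.23 ± 0.07 on the log2 scale to 11.6 ± 0.965 CPM with dFz7-21, against 27.3 ± 1.76 CPM with Fz7-21S. Rnf43 (-0.29 ± 0.04), Znrf3 (-0.31 ± 0.06) and Myc, the growth regulator (-0.20 ± 0.04), were lower by less, and the Znrf3 call was lost with all 24 libraries in the fit (adjusted p 0.162). Nkd1, another feedback inhibitor, averaged 3.62 ± 0.233 CPM with dFz7-21 and 3.25 ± 0.535 CPM with Fz7-21S (SD, n = 4), with a 95% interval of the log2 fold change of -0.16 to 0.45. The 4 list members that rose were Id2, which is also a BMP target, Plaur, the urokinase receptor (0.64 ± 0.04), the intestinal transcription factor Cdx2 (0.28 ± 0.04) and Cd44.

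To show where the sequence that TCF/LEF factors recognise sits in the promoter of a gene that fell, the 250 bases before the start of Sp5 are printed 5′ to 3′, from RefSeq on GRCm38.p6 at chr2:70474673-70474922 (plus strand). Capitals mark matches to CTTTGA, the core of the TCF/LEF motif, searched on both strands.
Sp5: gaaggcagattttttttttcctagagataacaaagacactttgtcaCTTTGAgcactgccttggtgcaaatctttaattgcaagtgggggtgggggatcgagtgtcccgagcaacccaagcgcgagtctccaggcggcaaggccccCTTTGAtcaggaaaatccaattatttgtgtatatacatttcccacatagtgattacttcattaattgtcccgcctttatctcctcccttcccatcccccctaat
The 2 matches begin 204 and 104 bases before the start. CTTTGA was found in the promoters of 3 of the 11 genes with a RefSeq entry among the 15 that fell most (Scn2b, Sp5, Tnfrsf19), in 1 of 12 among the 15 that rose most (Acer1) and in 13.0% of the tested genes with an entry. A match is a description of letters, and no binding was measured.

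The receptors and ligands were called at about the share of all genes in either direction (21.7%), and their median log2 fold change was -0.07. By sign, 11 tested members were positive and 18 negative. Of 29 tested Wnt receptors, ligands and co-receptors, 6 (20.7%) were lower and 0 higher in edgeR, against 11.0% and 10.7% among all genes. None was higher at an unadjusted p under 0.05 in edgeR, and none was called higher in DESeq2. The called members were Wnt9b (-1.23 ± 0.42), Sfrp5, a secreted Wnt antagonist (-1.01 ± 0.30), Fzd9 (-0.63 ± 0.11), the Paneth cell ligand Wnt3 (-0.49 ± 0.08), Fzd6 (-0.20 ± 0.07) and the co-receptor Ror2 (-0.17 ± 0.06). Wnt3 and Wnt9b overlap, and Wnt9b and Sfrp5 were near or under 1 CPM. Fzd7, the receptor the peptide is described as blocking, had 46.1, 49.0, 49.6 and 50.1 CPM with dFz7-21, against 46.6, 49.1, 46.7 and 45.8 CPM with Fz7-21S. These ranges overlapped, and the 95% interval of the log2 fold change was -0.05 to 0.15. Per length, the Frizzled levels in RPKM (reads per kilobase and M reads) were led by Fzd5, at 24.8 ± 0.993 with dFz7-21 and 25.8 ± 0.435 with Fz7-21S, followed by Fzd7, at 10.2 ± 0.324 with dFz7-21 and 9.76 ± 0.282 with Fz7-21S. Fzd6 averaged 3.97 ± 0.334 RPKM with dFz7-21 and 4.53 ± 0.174 RPKM with Fz7-21S, and Fzd9 averaged 2.85 ± 0.357 RPKM with dFz7-21 and 4.40 ± 0.184 RPKM with Fz7-21S. The remaining 6 Frizzled genes averaged at most 1.36 RPKM in either group. With all 24 libraries in the fit 1 of the 6 calls held, and 2 held at a minimum fold of 1.2. The Fzd9 call was lost in the first of these fits (adjusted p 0.0843), and that of Sfrp5 also without Fz7-21S replicate 2 (0.0524) or dFz7-21 replicate 3 (0.0682).

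Downstream of the receptor, 5 of 25 tested members of the beta-catenin destruction complex and the TCF/LEF family were higher (20%) and 2 lower (8%). The shares among all genes were 10.7% and 11.0%. Tcf7, a TCF factor and itself a Wnt target, changed by -0.37 ± 0.05 (log2), and the scaffold Axin1 by -0.12 ± 0.04. Tcf7l2, the main TCF factor of the intestine, rose by 0.26 ± 0.06, and the corepressor Tle4 by 0.22 ± 0.05. The others that rose were Ctnnbip1, an inhibitor of beta-catenin (0.20), and Csnk1a1 (0.12) and Fbxw11 (0.10), which promote its destruction. Of these calls, 2 of the 5 rises and 1 of the 2 falls held with all 24 libraries in the fit.

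BMP target genes made up many of the strongest rises. Of 20 tested BMP and TGF-beta target genes, 11 (55%) were higher and 2 (10%) lower, against 10.7% and 11.0% among all genes. Their median log2 fold change was 0.31. Id1, an inhibitor of basic helix-loop-helix factors and a direct BMP target, is gene 15901 at chr2:152736251-152737410. It had 199, 239, 224 and 227 CPM with dFz7-21, against 80.6, 85.3, 76.9 and 86.5 CPM with Fz7-21S. Every dFz7-21 library lay far above every Fz7-21S library, and the log2 fold change was 1.43 ± 0.05 (2.70-fold, adjusted p 1.93e-15). Id2 had 82.6, 81.2, 85.0 and 76.2 CPM with dFz7-21, against 33.4, 35.5, 32.6 and 35.4 CPM with Fz7-21S, also far apart (1.25 ± 0.05, adjusted p 2.29e-18). Id3 averaged 151 ± 10.8 CPM with dFz7-21 and 51.2 ± 2.06 CPM with Fz7-21S (1.56 ± 0.05, adjusted p 7.07e-21), but 2 further gene models carry identical counts, so which of them the reads belong to is uncertain.

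The inhibitory Smads, which damp BMP signals as feedback, rose with the Id genes. Smad6 had 6.68, 8.68, 8.05 and 7.86 CPM with dFz7-21, against 2.27, 3.41, 2.38 and 2.16 CPM with Fz7-21S. No values overlapped, and Smad6 was 3.07-fold higher (log2 fold change 1.62 ± 0.14, adjusted p 2.88e-10). Smad7 averaged 21.6 ± 1.68 CPM with dFz7-21 and 12.9 ± 1.03 CPM with Fz7-21S (0.75 ± 0.08). Smad9, a receptor-regulated Smad of the BMP branch, averaged 3.22 ± 0.432 CPM with dFz7-21 and 0.954 ± 0.274 CPM with Fz7-21S (1.74 ± 0.21). The homeobox factor Msx1 rose by 1.58 ± 0.20 and the T-box factor Tbx3, also known as a Wnt target in liver, by 0.93 ± 0.05. Msx1 and Tbx3 overlap the antisense genes Msx1os and Tbx3os1, which were also higher (1.46 and 1.43 on the log2 scale). The list members that fell were Bambi, a decoy receptor for BMP and TGF-beta that Wnt also switches on (-0.57 ± 0.13), and the corepressor Tgif1 (-0.22 ± 0.04).

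For the sequence that BMP Smads recognise, the same search was made for GGCGCC, printed in capitals in the 250 bases before the RefSeq start of Id2 (chr12:25096093-25096342, minus strand) and of Smad9 (chr3:54755332-54755581, plus strand), because both genes rose strongly.
Id2: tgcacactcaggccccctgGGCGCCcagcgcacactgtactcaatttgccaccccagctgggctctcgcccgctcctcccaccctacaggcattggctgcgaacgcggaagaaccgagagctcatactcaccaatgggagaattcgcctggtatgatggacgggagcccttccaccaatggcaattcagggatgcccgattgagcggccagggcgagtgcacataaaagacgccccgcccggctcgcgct
Smad9: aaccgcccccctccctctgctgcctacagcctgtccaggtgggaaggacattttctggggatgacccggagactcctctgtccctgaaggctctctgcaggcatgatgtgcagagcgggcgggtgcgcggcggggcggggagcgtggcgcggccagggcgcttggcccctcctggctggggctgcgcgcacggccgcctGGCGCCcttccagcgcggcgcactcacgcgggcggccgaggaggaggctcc
The start used for Smad9 lies inside the annotated span of the gene. The match begins 231 bases before the start of Id2 and 51 bases before the start of Smad9. GGCGCC was found for 3 of 12 genes with an entry among those that rose most (Id2, Sct, Smad9), for 2 of 11 among those that fell most (Fam20c, Tnfrsf19) and for 18.9% of tested genes with an entry.

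BMP ligands, receptors and Smads showed no such direction. Of 28 tested members, 5 (17.9%) were higher and 5 (17.9%) lower, against 10.7% and 11.0% among all genes. Rgma and Rgmb, BMP co-receptors of the repulsive guidance molecule family, fell by 1.60 ± 0.18 and 0.77 ± 0.05 on the log2 scale. Bmp7, a BMP ligand, averaged 27.9 ± 1.37 CPM with dFz7-21 and 42.9 ± 4.72 CPM with Fz7-21S (-0.61 ± 0.07). Acvr2b (-0.30) and Smad5 (-0.16) were the other members that fell. Fst, a secreted antagonist of activin and BMP, rose by 0.82 ± 0.14, and Smurf1 (0.21), Acvr1 (0.17) and Smad3 (0.13) rose by less. The list also held Tgfa (0.27), which encodes a ligand of the EGF receptor and not of this pathway. None of the 5 rises and 3 of the 5 falls held with all 24 libraries in the fit.

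**Figure D3:**
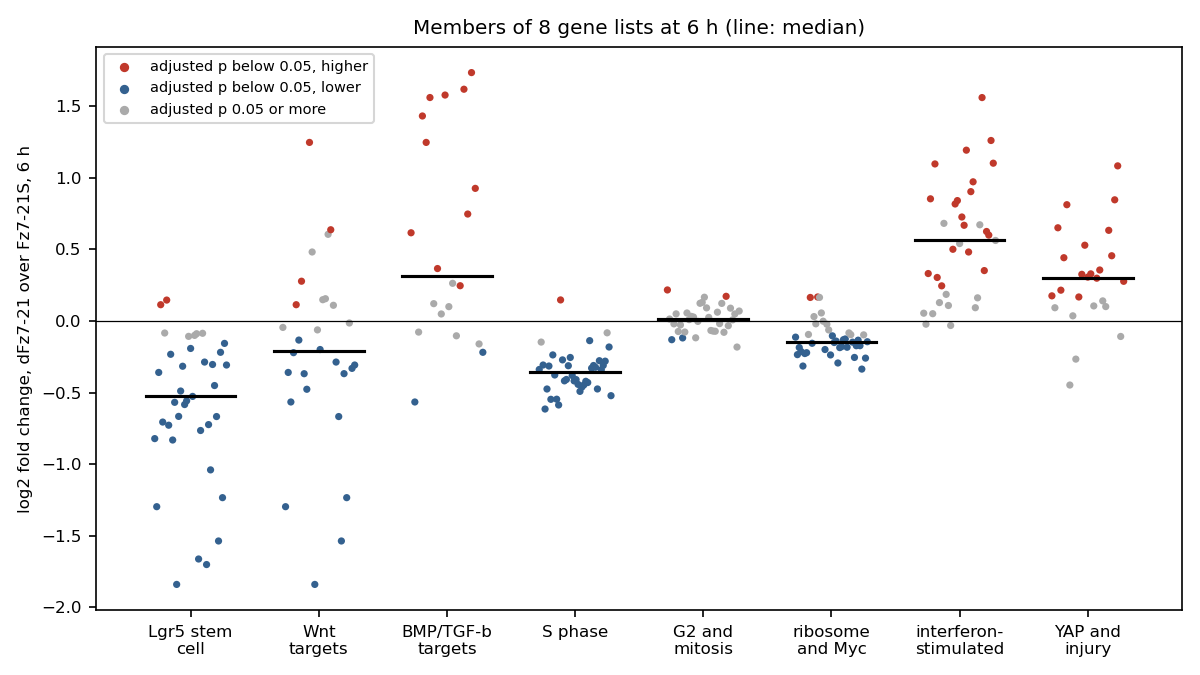
Log2 fold changes at 6 h, dFz7-21 over Fz7-21S, of the tested members of 8 gene lists, 1 point per gene, with a line at each median. Stem cell and S phase members lie mostly below 0 (medians -0.53 and -0.36), G2 and mitosis members lie around 0 (0.01), and interferon-stimulated members lie mostly above it (0.56).

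Transcripts of DNA replication fell while those of mitosis did not move together. Of 38 tested S phase genes, 35 were lower and 1 higher, with a median of -0.36. Mcm4, a subunit of the replicative helicase, had 111, 113, 107 and 119 CPM with dFz7-21, against 153, 164, 161 and 156 CPM with Fz7-21S. The groups did not overlap, and the log2 fold change was -0.49 ± 0.04 (adjusted p 5.27e-11). The helicase subunits Mcm5 (-0.46 ± 0.04) and Mcm6 (-0.45 ± 0.04) were lower to a like extent. Cdc6, which loads the helicase, fell by 0.62 ± 0.06, and the transcription factor E2f1 by 0.59 ± 0.06. E2f2 was the 1 member that rose, by 0.15 ± 0.04 (adjusted p 0.0152), with overlapping groups. Among 34 tested G2 and mitosis genes, 2 (5.88%) were higher and 2 (5.88%) lower, with a median of 0.01. These shares lay below the 10.7% and 11.0% among all genes. The cytokinesis factor Anln (0.22 ± 0.04) and the spindle protein Nusap1 (0.17 ± 0.06) rose, and cyclin A2, Ccna2 (-0.12 ± 0.03), and the kinase Aurkb (-0.13) fell. None of these 4 calls held with all 24 libraries in the fit. The Nusap1 groups overlapped, and its call was also lost without any 1 of Fz7-21S replicates 1, 2 and 4 and dFz7-21 replicate 4 (adjusted p 0.0525, 0.111, 0.0932 and 0.146). Mki67, the proliferation marker, averaged 202 ± 6.76 CPM with dFz7-21 and 186 ± 18.5 CPM with Fz7-21S (adjusted p 0.151 in edgeR, 95% interval 0.00 to 0.24). It passed without Fz7-21S replicate 3 (adjusted p 0.00813) and with no filter on low counts (0.00777).

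Of 24 tested G1 regulators, 6 (25%) were higher and 8 (33.3%) lower, against 10.7% and 11.0% among all genes. Cdkn1a, which encodes the cyclin kinase inhibitor p21, rose by 0.40 ± 0.04 to 553 ± 26.6 CPM with dFz7-21, against 420 ± 19.6 CPM with Fz7-21S. The G1 kinases Cdk2 (-0.26 ± 0.04) and Cdk4 (-0.20 ± 0.04) and cyclin D1, Ccnd1 (-0.22 ± 0.04), were lower. Of these calls, 3 of the 6 rises and 2 of the 8 falls held with all 24 libraries in the fit. Ribosome biogenesis and Myc genes were lower by small amounts, 27 of 40 tested against 2 higher, with a median of -0.15. Srm, the spermidine synthase, fell by 0.34 ± 0.04, Nolc1, a nucleolar assembly protein, by 0.29 ± 0.04, and Ncl, nucleolin, by 0.24 ± 0.03. Mlx and Mxd1, partners in the Myc network, rose by 0.16 and 0.17. In the fit of 24 libraries, 7 of the 27 falls held, against 29 of the 35 S phase falls.

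Among genes of differentiated lineages, several mucins rose, and transcription factors changed in both directions. Of 23 tested goblet cell genes, 8 (34.8%) were higher and 4 (17.4%) lower, against 10.7% and 11.0% among all genes. Muc2, the main gel-forming mucin, had 154, 164, 172 and 156 CPM with dFz7-21, against 121, 98.4, 111 and 96.0 CPM with Fz7-21S. All dFz7-21 values were the higher ones (log2 fold change 0.60 ± 0.07, adjusted p 2.54e-05). The membrane mucins Muc3 (0.43 ± 0.05), Muc4 (0.71 ± 0.19) and Muc13 (0.27 ± 0.04) and the mucus protein Fcgbp (0.30 ± 0.03) rose too. The transcription factors Foxa3 (-0.41 ± 0.05), Foxa2 (-0.60 ± 0.10) and Creb3l1 (-0.43 ± 0.05) and the glycosyltransferase Galnt12 (-0.23) were the members that fell. With all 24 libraries in the fit, 5 of the 8 rises and 3 of the 4 falls held.

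The enteroendocrine list also changed in both directions, with 7 of 33 tested members higher (21.2%) and 3 lower (9.09%). Sct, the hormone secretin, had 15.9, 19.9, 24.0 and 19.9 CPM with dFz7-21, against 9.17, 8.30, 9.09 and 8.93 CPM with Fz7-21S, without overlap (1.17 ± 0.10, adjusted p 9.37e-10). Tph1, the enzyme of serotonin synthesis, rose by 0.71 ± 0.10 and the late factor Neurod1 by 0.75 ± 0.14. Neurog3, the factor that starts the endocrine programme, fell by 0.54 ± 0.08, as did the factors Mnx1 (-0.71 ± 0.12) and Nkx2-2 (-0.56 ± 0.16). Of the 7 rises 3 held with all 24 libraries in the fit, as did the 3 falls. Chga, a granule protein of these cells, averaged 52.9 ± 4.98 CPM with dFz7-21 and 51.5 ± 2.56 CPM with Fz7-21S (95% interval of the log2 fold change -0.08 to 0.16).

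Enterocyte, Paneth and tuft cell genes were called at shares near or below that of all genes. Of 39 enterocyte genes, 5 (12.8%) were higher and 5 (12.8%) lower, against 10.7% and 11.0% among all genes. The higher ones were the nuclear receptor Hnf4a (0.37 ± 0.03), the lectin Lgals3 (0.50 ± 0.04), Cdx2, the microvillus protein Vil1 (0.10) and the keratin Krt19 (0.10). The lower ones were Mep1a (-0.24), the peptide transporter Slc15a1 (-0.21), Apoa1 (-0.18), Ace (-0.13) and Cdx1 (-0.13). With all 24 libraries in the fit 3 of these rises and none of these falls held. Alpi, the intestinal alkaline phosphatase, averaged 46.7 ± 2.56 CPM with dFz7-21 and 46.4 ± 1.85 CPM with Fz7-21S (95% interval -0.10 to 0.11). Of 23 Paneth cell genes, 3 were lower and 0 higher (1 at an unadjusted p under 0.05 in edgeR, 0 in DESeq2): Pla2g2a, an antimicrobial phospholipase (-0.84 ± 0.08), Defa3, a defensin (-0.73 ± 0.17), and Wnt3. Pla2g2a overlaps Pla2g5, itself among the strongest falls (-1.28 ± 0.14), and defensin copies are so alike that the Defa3 value is uncertain. Lyz1, lysozyme, averaged 1119 ± 66.6 CPM with dFz7-21 and 1092 ± 27.5 CPM with Fz7-21S (95% interval -0.04 to 0.11). Of 22 tuft cell genes, 2 were lower, the factors Sox4 (-0.61 ± 0.05) and Pou2f3 (-0.37 ± 0.11), and 0 higher in edgeR (2 at an unadjusted p under 0.05) and in DESeq2. The Pou2f3 call was lost without dFz7-21 replicate 3 (adjusted p 0.0752) or replicate 4 (0.0532). Dclk1, the tuft cell kinase, averaged 9.52 ± 0.966 CPM with dFz7-21 and 9.07 ± 0.865 CPM with Fz7-21S (95% interval -0.13 to 0.27).

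Reserve stem cell genes moved with the Lgr5 list, with which they share members. Of 12 tested, 6 (50%) were lower and 2 (16.7%) higher, against 11.0% and 10.7% among all genes. Lrig1, an inhibitor of EGF receptors and a stem cell marker, had 117, 121, 106 and 117 CPM with dFz7-21, against 174, 188, 181 and 186 CPM with Fz7-21S, without overlap (-0.67 ± 0.04, adjusted p 1.46e-13). Sox9, a crypt transcription factor, fell by 0.67 ± 0.07 and the homeodomain protein Hopx by 0.40 ± 0.04. Clu (0.33) and Krt19 were the 2 that rose.

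Genes of the Eph, semaphorin, Notch and EGF receptor groups changed in both directions. Of 14 tested Eph receptors and ephrins, 5 (35.7%) were lower and 2 (14.3%) higher, against 11.0% and 10.7% among all genes. Ephb2, a receptor of crypt base cells and a Wnt target, had 186, 198, 184 and 187 CPM with dFz7-21, against 244, 252, 245 and 234 CPM with Fz7-21S, and the groups stood apart (-0.37 ± 0.04). Ephb3 (-0.48 ± 0.05), Ephb4 (-0.39 ± 0.04), Efna3 (-0.73) and Efna4 (-0.59) were the other falls. Epha2 rose by 0.60 ± 0.03 to 369 ± 14.2 CPM with dFz7-21, against 243 ± 6.29 CPM with Fz7-21S, and Efnb1 rose by 0.10. Of 26 tested semaphorins, plexins and guidance receptors, 9 (34.6%) were higher and 3 (11.5%) lower. Sema4c (-1.15 ± 0.12), Sema5a (-0.22) and Sema7a (-0.22) fell, and Sema3b (0.44 ± 0.05) and Sema3c (0.35 ± 0.05) had the smallest p-values of the rises. Of the 9 rises, 2 held with all 24 libraries in the fit, as did 1 of the 3 falls. Of 21 tested Notch pathway genes, 4 (19.0%) were lower and 1 (4.76%) higher, against 11.0% and 10.7% among all genes. The ligase Dtx4 (-0.62 ± 0.04), the Notch-modifying enzyme Lfng (-0.61 ± 0.09), Hes5 (-0.62 ± 0.17) and Hes6 (-0.31 ± 0.05) fell, and the ligand-like Dlk1 (1.05 ± 0.27) rose. Of these, 2 of the 4 falls held with all 24 libraries in the fit and the rise did not. Of 25 tested EGF receptor ligands and ERK feedback genes, 12 (48%) were higher and 4 (16%) lower. The ligand Areg rose by 0.41 ± 0.04 to 362 ± 18.8 CPM with dFz7-21, against 273 ± 15.6 CPM with Fz7-21S, the ligand Ereg by 0.53 ± 0.06 and the receptor Egfr by 0.36 ± 0.05. Lrig3 (-0.61 ± 0.05), Etv5 (-0.54), Etv4 (-0.24) and Lrig1 were lower. In the fit of 24 libraries, 5 of the 12 rises and 3 of the 4 falls held. The mean level of this list was taken as log2(CPM + 0.5) with all 24 libraries scaled together. It was 5.58 to 5.66 with dFz7-21, 5.48 to 5.59 with Fz7-21S and 5.44 to 5.46 in DMSO at 6 h, so the peptide groups overlapped.

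Interferon-stimulated genes were higher as a group, but their level also varied among control libraries. Of 33 tested members, 20 were higher and 0 lower in edgeR, with a median of 0.56. None was lower at an unadjusted p under 0.05 in edgeR either, and none was called lower in DESeq2. Irf9, the DNA-binding subunit of the interferon response complex, had 34.0, 33.3, 33.9 and 33.2 CPM with dFz7-21, against 19.5, 19.6, 18.1 and 19.2 CPM with Fz7-21S, with a wide gap (0.82 ± 0.06, adjusted p 6.01e-12). Oas3, an antiviral RNA-sensing enzyme, rose by 1.19 ± 0.12 and Stat2, the partner of Irf9, by 0.63 ± 0.07. Rtp4 had 8.40, 6.52, 7.21 and 5.87 CPM with dFz7-21, against 2.08, 2.18, 3.60 and 1.55 CPM with Fz7-21S (1.56 ± 0.19). Usp18, which restrains the interferon receptor, rose by 1.26 ± 0.33 (adjusted p 0.0305), and that call was lost under 6 of the alternatives, with adjusted p values from 0.0603 to 0.223. Among these were the fits without Fz7-21S replicate 1 (0.0643), Fz7-21S replicate 2 (0.0603) or dFz7-21 replicate 3 (0.0789). The mean level of the 33 members, as log2(CPM + 0.5) with all 24 libraries scaled together, was 3.63 to 3.83 in the dFz7-21 libraries, 2.97 to 3.44 in the Fz7-21S libraries, with the highest of these in replicate 3, and 3.14 to 4.04 in the DMSO libraries at 6 h. DMSO replicate 2 therefore stood above all dFz7-21 libraries, and it held 15.03 CPM of Usp18 and 7.86 CPM of Rtp4. The same library held the highest Lgr5 level (50.4 CPM) and the lowest Id1 level (71.9 CPM) of the 12 libraries at 6 h. DMSO replicates 1 and 2 at 6 h also held mesenchymal transcripts, with summed markers of 352 and 327 CPM of the library total and Vim at 54.6 and 104 CPM, against at most 15.8 CPM summed in DMSO replicates 3 and 4. The part of these differences in the values of the DMSO libraries was not tested.

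Genes of injury, of growth factor response and of inflammation were higher too. Of 25 tested YAP targets and genes of injured or fetal-like epithelium, 17 were higher and 0 lower in edgeR (0 at an unadjusted p under 0.05, 0 in DESeq2), with a median of 0.30, and 9 of the 17 held with all 24 libraries in the fit. Anxa1, an annexin, had 221, 220, 239 and 223 CPM with dFz7-21, against 152, 133, 146 and 144 CPM with Fz7-21S, without overlap (0.65 ± 0.04, adjusted p 1.78e-13). Anxa3 rose by 0.44 ± 0.04, and Sprr1a, a small proline-rich protein of stressed epithelia, by 0.85 ± 0.05. Another member of that family, Sprr2h, had the largest rise of all named genes, with 5.76, 4.32, 6.29 and 5.23 CPM with dFz7-21, against 0.833, 0.480, 0.606 and 1.32 CPM with Fz7-21S (2.71 ± 0.21, adjusted p 7.8e-11). Of 31 tested immediate early genes, 17 were higher and 1 lower (Nr4a2, -0.36), with a median of 0.22. Klf4, a factor of differentiated epithelium (0.49 ± 0.05), the AP-1 factor Fosl1 (0.52 ± 0.06) and Klf10 (0.37 ± 0.04) had the smallest p-values among these, and 7 of the 17 rises held with all 24 libraries in the fit. Fosl1 overlaps Ccdc85b, which was also higher. Of 26 tested NF-kB targets and chemokines, 9 (34.6%) were higher and 2 (7.69%) lower, against 10.7% and 11.0% among all genes. Nos2, the inducible nitric oxide synthase, averaged 33.4 ± 2.30 CPM with dFz7-21 and 18.1 ± 0.847 CPM with Fz7-21S (0.89 ± 0.06), Bcl3 rose by 0.40 ± 0.05, and the chemokine Ccl25 (-0.25 ± 0.04) and the dismutase Sod2 (-0.14) fell. Of these calls, 5 of the 9 rises and neither fall held with all 24 libraries in the fit.

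Metabolic and stress lists moved by less. Sterol genes rose together, 18 of 31 against 1 that fell (Mylip, -0.47), with a median of 0.15. Among them, Hsd17b7, an enzyme of cholesterol synthesis, rose by 0.33 ± 0.04. Tight junction genes were higher in 11 of 20 and lower in 1, the pore-forming Cldn2 (-0.19). Cldn23 (0.31 ± 0.05), Ocln (0.23 ± 0.04) and F11r (0.23 ± 0.03) had the smallest p-values of the rises. Of 21 fatty acid synthesis genes, 7 (33.3%) were higher and 2 (9.52%) lower, against 10.7% and 11.0% among all genes. Agpat2 (0.32 ± 0.04), Elovl1 (0.20 ± 0.03) and the desaturase Fads1 (-0.30 ± 0.05) were foremost, and Fads2 (-0.15) was the other fall. Of 29 glycolysis and hypoxia genes, 9 (31.0%) were higher and 2 (6.90%) lower (Pdk1, -0.24, and Egln1, -0.15). The hexokinase Hk1 (0.45 ± 0.06), Ndrg1 (0.34 ± 0.04) and the lactate transporter Slc16a3 (0.41 ± 0.08) led by p-value. With all 24 libraries in the fit, 10 of the 18 sterol rises held, 3 of the 11 tight junction rises, 2 of the 7 fatty acid rises and 3 of the 9 glycolysis and hypoxia rises.

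Of 34 ATF4 target genes, 9 (26.5%) were lower and 5 (14.7%) higher, against 11.0% and 10.7% among all genes. The amino acid transporter Slc7a5 (-0.28 ± 0.04), the serine enzyme Shmt2 (-0.26 ± 0.04) and Cbs (-0.60 ± 0.11) fell, while Trib3 (0.42), Chac1 (0.41), Slc7a11 (0.38), Atf3 (0.22) and Ddit3 (0.22) rose. Of 25 endoplasmic reticulum chaperone genes, 4 (16%) were lower, against 11.0% of all genes, and 0 higher (2 at an unadjusted p under 0.05 in edgeR, 0 in DESeq2). The lower ones were Herpud1 (-0.19 ± 0.04), Sdf2l1 (-0.21 ± 0.05), Pdia4 (-0.12 ± 0.04) and Hyou1 (-0.10). The Pdia4 call was lost without Fz7-21S replicate 2 (adjusted p 0.162) or without dFz7-21 replicate 1 (0.0571), 2 (0.0720) or 3 (0.0558). Of 31 NRF2 targets, 9 (29.0%) were higher and 2 (6.45%) lower, the metallothioneins Mt1 (-0.27 ± 0.04) and Mt2 (-0.27 ± 0.05). Gsta4 (0.25 ± 0.04) had the smallest p-value of the rises and Slc7a11 the largest fold change. None of these 11 calls held with all 24 libraries in the fit or at a minimum fold of 1.2. The mean level of the NRF2 list, as log2(CPM + 0.5), was 7.28 to 7.43 with dFz7-21 and 7.26 to 7.31 with Fz7-21S, which overlapped. In DMSO at 6 h it was 7.15 to 7.24. Of 28 p53 targets, 4 (14.3%) were higher and 4 (14.3%) lower, against 10.7% and 11.0% among all genes. Those higher were Cdkn1a, Perp (0.23 ± 0.03), Pmaip1 (0.24 ± 0.05) and Mdm2 (0.16), and those lower were Sesn2 (-0.24), Aen (-0.17), Phlda3 (-0.16) and Ddit4 (-0.12). In the fit of 24 libraries 3 of the 4 p53 rises held and none of the 4 falls, 2 of the 5 ATF4 rises and 6 of the 9 falls, and 1 of the 4 chaperone falls.

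Of 28 FoxO and starvation genes, 8 (28.6%) were higher and 6 (21.4%) lower, against 10.7% and 11.0% among all genes. The regulatory kinase subunit Pik3r1 fell by 0.65 ± 0.05, and Ccng2 rose by 0.41 ± 0.07. With all 24 libraries in the fit, 2 of the 8 rises and 2 of the 6 falls held. Of 21 retinoid genes, 3 (14.3%) were higher and 4 (19.0%) lower, against 10.7% and 11.0% among all genes. Aldh1a3, which makes retinoic acid, averaged 39.2 ± 2.98 CPM with dFz7-21 and 19.8 ± 1.87 CPM with Fz7-21S (0.99 ± 0.07), Dhrs9 (0.68 ± 0.13) and Rdh10 (0.18) rose, and Rdh7 (-0.64), Bco1 (-0.38 ± 0.07), Rxrb (-0.14) and Scarb1 (-0.13) fell. Of the retinoid calls 2 of the 3 rises and 2 of the 4 falls held in the same fit. Of 20 aquaporins and solute carriers of crypt cells, 8 (40%) were lower and 3 (15%) higher. Slc12a2, the chloride cotransporter of crypt cells, had 400, 447, 423 and 424 CPM with dFz7-21, against 717, 689, 752 and 643 CPM with Fz7-21S, without overlap (-0.72 ± 0.04, adjusted p 5.7e-12). Kcnq1, a potassium channel that overlaps Kcnq1ot1 (also lower, -0.55), fell by 0.57 ± 0.04, and the water channel Aqp4 by 0.82 ± 0.09. Aqp11 (0.20), Clca3b and the chloride channel Ano1 (0.26 ± 0.05) were the 3 that rose. In the fit of 24 libraries, 5 of these 8 falls and 1 of the 3 rises held.

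**Figure D4:**
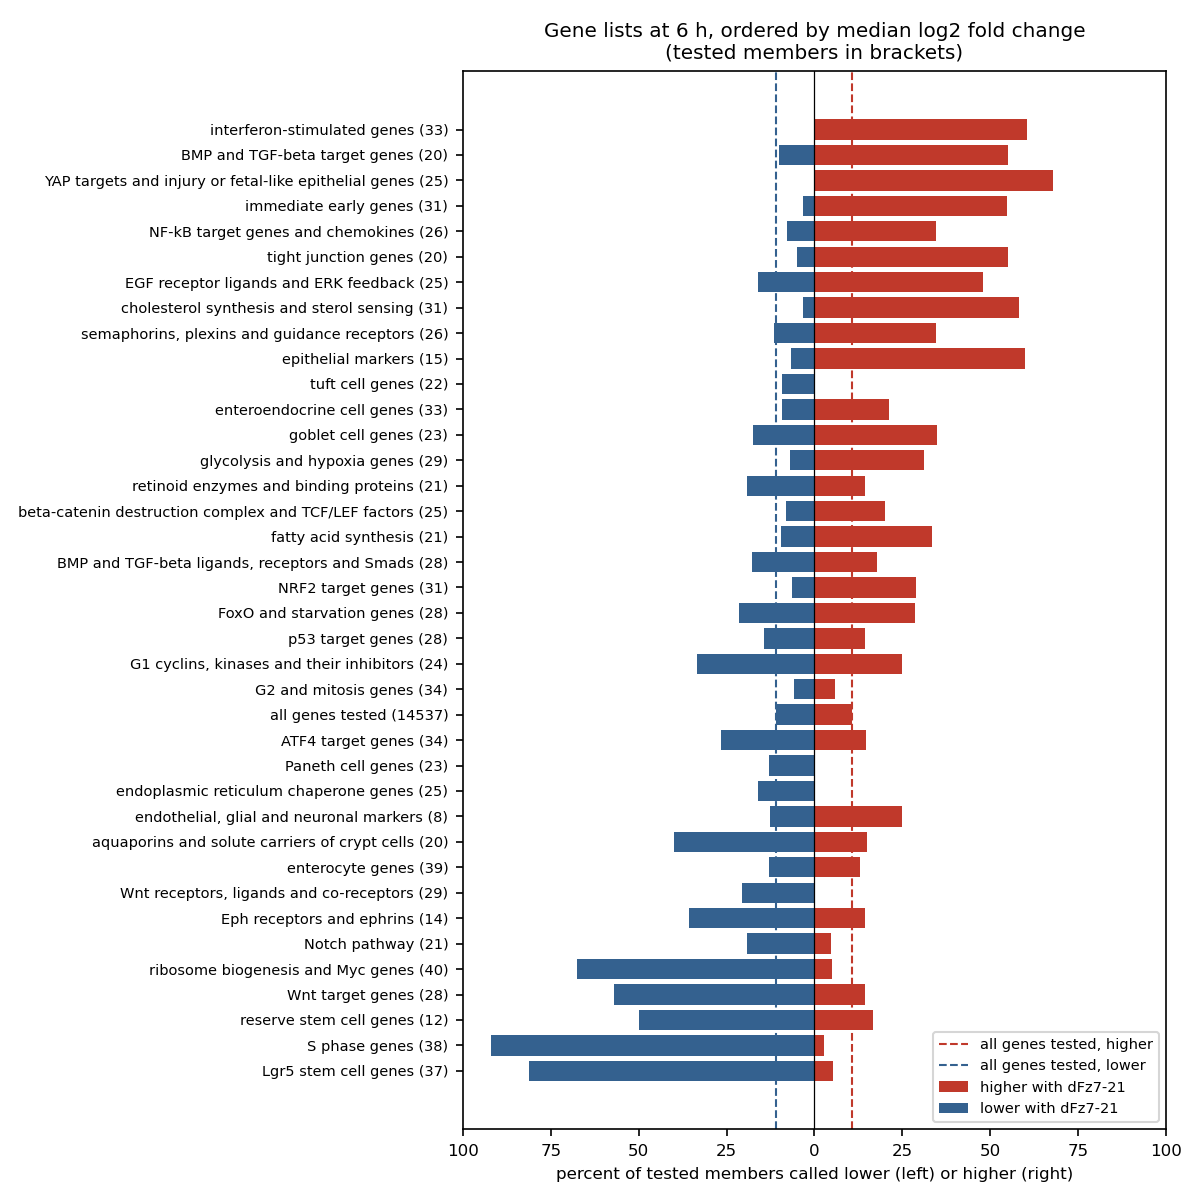
Percent of tested members of each gene list called lower (left, blue) or higher (right, red) at 6 h, for lists with at least 8 tested members, ordered by median log2 fold change, with dashed lines at 11.0% and 10.7% for all genes. Lgr5 stem cell and S phase genes extend furthest to the left, and YAP and interferon-stimulated genes furthest to the right.

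The mesenchymal and immune lists each left 4 tested members, and none was called in edgeR or DESeq2. In edgeR 1 mesenchymal member was higher at an unadjusted p under 0.05, and none was lower, nor any immune member higher or lower. Fn1 (0.53 ± 0.22, adjusted p 0.0893), Vim (0.30 ± 0.16) and Pdgfrb (0.30 ± 0.25) had the smallest p-values of the mesenchymal list and Cd14 (0.17 ± 0.10), Itgam (0.32 ± 0.20) and Csf1r (-0.16 ± 0.37) those of the immune list. Fn1 passed without Fz7-21S replicate 1 or without dFz7-21 replicate 1 (adjusted p 0.0426 and 0.0290). Of 8 tested endothelial, glial and neuronal markers, Ano1 and Lyve1 (0.51 ± 0.13) were higher and Kit (-0.24 ± 0.08) was lower. These shares were 25% and 12.5%, against 10.7% and 11.0% among all genes. None of these 3 calls held with all 24 libraries in the fit. The Kit groups overlapped, and its call was also lost without any 1 of Fz7-21S replicates 1 and 2 and dFz7-21 replicates 2 and 3 (adjusted p 0.113, 0.128, 0.112 and 0.139). Of the epithelial markers, Hnf4a, Cdx2 and the cadherin Cdh17 (0.18 ± 0.03) had the smallest p-values of the 9 rises and Cdx1 was the fall, and 2 of the 9 rises held with all 24 libraries in the fit.

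Several other named genes changed strongly, most of them outside these lists. Rgcc, a cell cycle regulator, had 5.20, 7.93, 4.23 and 6.66 CPM with dFz7-21, against 22.8, 20.3, 21.6 and 23.2 CPM with Fz7-21S, 3.67-fold lower and without overlap (-1.87 ± 0.13, adjusted p 3.55e-08). Slc14a1, a urea transporter on the solute carrier list, fell by 1.54 ± 0.17, Angpt2, a ligand of the Tie2 receptor whose gene overlaps Mcph1, by 1.21 ± 0.11, Prelp, a matrix proteoglycan, by 1.19 ± 0.17, and Fam20c, a secretory pathway kinase, by 1.16 ± 0.07. Fam20c had 30.8, 32.4, 32.9 and 29.7 CPM with Fz7-21S but 23.6 to 25.7 CPM in the DMSO libraries, so Fz7-21S lay above the vehicle for this gene. Fz7-21S also lay above DMSO at 6 h in some mean list levels, among them those of the EGF receptor and NRF2 lists given above. Among the rises, Epb41l1, a protein of the membrane skeleton, had 49.4, 43.0, 51.9 and 40.0 CPM with dFz7-21, against 18.6, 17.7, 16.9 and 17.1 CPM with Fz7-21S (1.39 ± 0.07, adjusted p 6.71e-14). Acer1, an alkaline ceramidase, rose by 1.47 ± 0.12, Cpm, the membrane enzyme carboxypeptidase M, by 1.11 ± 0.08, and Xaf1, a protein on the interferon-stimulated list, by 1.10 ± 0.17.

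The same contrast at 24 h, which shares no library with that at 6 h, showed which changes grew. In a fit of the 16 peptide libraries, 4384 of 15075 genes were called at 24 h (29.1%), 2411 higher (16%) and 1973 lower (13.1%). Of the genes higher at 6 h, 680 were higher at 24 h as well, which is 43.6% of those at 6 h and 28.7% of those at 24 h, against 16% and 10.7% of all genes higher at 24 h and at 6 h, and 69 were lower. Of the genes lower at 6 h, 728 were lower at 24 h, which is 45.6% of those at 6 h and 37.5% of those at 24 h, against 13.1% and 11.0% of all genes lower at 24 h and at 6 h, and 88 were higher. The dFz7-21 library of replicate 3 at 24 h held mesenchymal transcripts (summed markers 1575 CPM of the library total, Col1a1 387 CPM), against at most 14.4 CPM summed in the Fz7-21S libraries at 24 h. Without it, 631 genes were higher and 627 lower at both times. The interaction of peptide and time was called for 1318 genes (8.74%), 820 (5.44%) with a more positive and 498 (3.3%) with a more negative difference at 24 h. That count was 3001 without Fz7-21S replicate 4 at 24 h. In that library the 20 most abundant genes held 6.29% of the counts, against 5.01% to 5.26% in the other Fz7-21S libraries at 24 h. A count was found for 17787 genes, against 18914 to 19276. Its epithelial markers summed to 17971 CPM of the library total, against 15369 to 16402 CPM. The part of these differences in the 24 h results was not tested.

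For some stem cell transcripts the difference was wider at 24 h. The interaction did not pass for Ascl2 (-0.52 ± 0.28), Ptpro (-0.62 ± 0.30), Lrig1 (-0.19 ± 0.10) or Hopx (-0.18 ± 0.16), which does not show equal changes. Olfm4, which had scarcely moved at 6 h, averaged 67.9 ± 18.1 CPM with dFz7-21 and 1275 ± 85.0 CPM with Fz7-21S at 24 h (SD, n = 4 each). Its log2 fold change at 24 h was -4.21 ± 0.15, and the change of the difference between times was -4.02 ± 0.19 (adjusted p 4.12e-09). Lgr5 averaged 3.83 ± 1.24 CPM with dFz7-21 and 80.2 ± 18.1 CPM with Fz7-21S at 24 h (interaction -2.53 ± 0.27, adjusted p 2.46e-05). Smoc2 averaged 136 ± 13.4 CPM with dFz7-21 and 558 ± 22.2 CPM with Fz7-21S at 24 h (interaction -0.98 ± 0.09), above its 6 h level in both groups. Axin2 (-0.92 ± 0.18), Nkd1 (-1.55 ± 0.34), Rnf43 (-0.58 ± 0.10), Slc14a1 (-2.29 ± 0.31), Angpt2 (-1.51 ± 0.17), the transsulfuration enzyme Cbs (-2.27 ± 0.16) and the secretory pathway calcium pump Atp2c2 (-1.38 ± 0.10) likewise had a more negative difference at 24 h. From 6 h to 24 h, with all 24 libraries scaled together, the Fz7-21S mean rose for Lgr5 (38.2 to 80.2 CPM) and Cbs (6.80 to 23.0 CPM). It also rose for Angpt2 (9.90 to 20.9 CPM) and Atp2c2 (14.9 to 31.5 CPM). It fell for Olfm4 (1387 to 1275 CPM), Axin2 (265 to 232 CPM) and Rnf43 (164 to 124 CPM). The dFz7-21 mean of each of these genes fell. Lyz1, not called at 6 h, fell by 0.75 ± 0.06 at 24 h (interaction -0.78 ± 0.09). The interactions of Sp5 (-0.72 ± 0.20) and Myc (-0.27 ± 0.08) were also called, at adjusted p values of 0.0306 and 0.0342, but were lost under 9 and 12 of the alternatives.

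Other genes turned round or subsided. Clca3b rose slightly at 6 h but fell by 1.57 ± 0.10 at 24 h, and the tubulin Tubb2b rose by 0.31 ± 0.06 at 6 h and fell by 1.29 ± 0.07 at 24 h. The gene Cpm rose by 1.11 ± 0.08 at 6 h and fell by 0.58 ± 0.16 at 24 h (interaction -1.69 ± 0.21). The rises of Id1 and Id2 were smaller at 24 h, at 0.66 ± 0.14 and 0.24 ± 0.08 (interactions -0.77 ± 0.20 and -1.01 ± 0.11, adjusted p 0.0191 and 2.89e-05). Alpi, not called at 6 h, rose by 1.18 ± 0.07 at 24 h to 132 ± 4.54 CPM with dFz7-21, against 58.9 ± 6.87 CPM with Fz7-21S (interaction 1.17 ± 0.10, adjusted p 3.98e-06). The carboxylesterase Ces1g (interaction 1.27 ± 0.11), the cytochrome P450 gene Cyp4f40 (1.16 ± 0.10), the peptidase-like Naaladl1 (0.85 ± 0.08) and the VIP receptor Vipr1 (1.05 ± 0.08) also became more positive, and Vipr1 was lower at 6 h (-0.24 ± 0.04) but higher at 24 h (0.81 ± 0.05). For Smad6 (interaction -0.09 ± 0.30), Rgcc (-0.03 ± 0.27), Fam20c (-0.02 ± 0.13), Scn2b (-0.21 ± 0.21) and Rtp4 (0.04 ± 0.36) the interaction did not pass, which does not show that their changes were equal at both times.

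**Figure D5:**
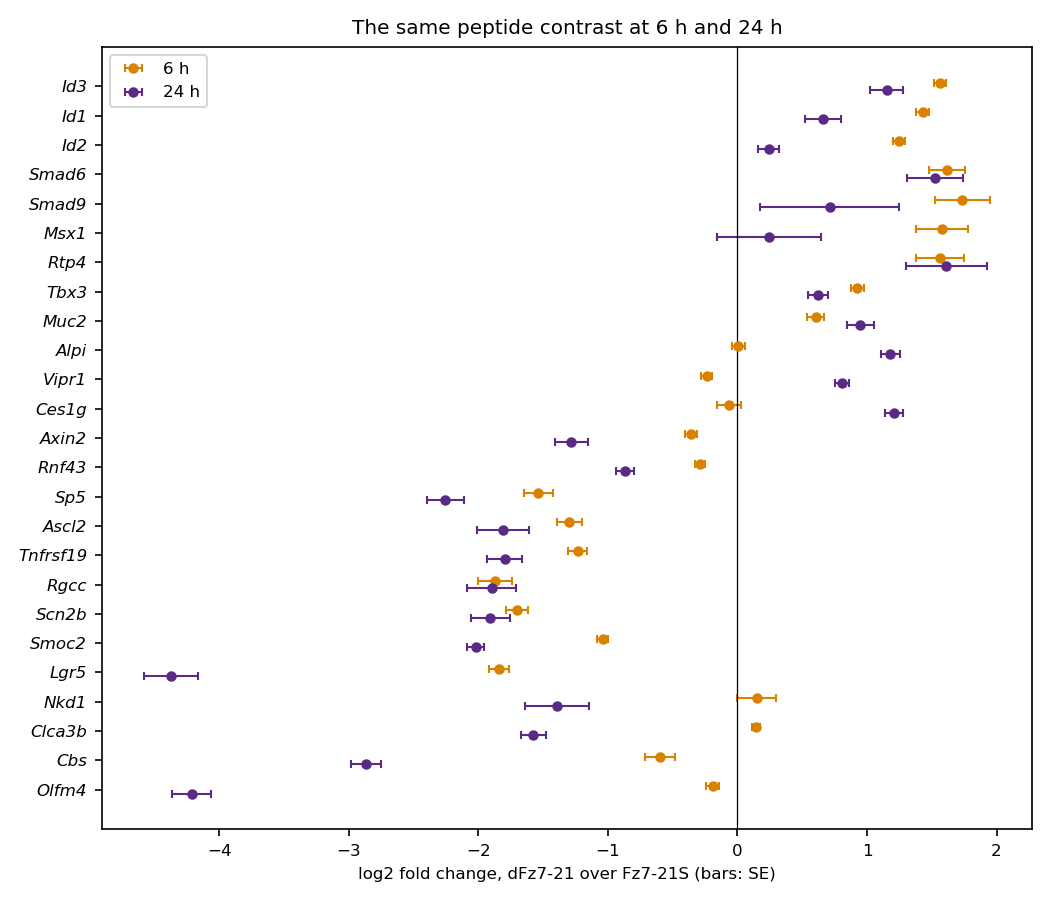
Log2 fold change, dFz7-21 over Fz7-21S, of 25 genes at 6 h (orange, fit of 8 libraries) and 24 h (purple, fit of 16 libraries), with bars for the SE. Olfm4 and Lgr5 lie far to the left at 24 h (-4.21 and -4.37), the 24 h points of Id1 and Id2 lie left of their 6 h points, and Alpi and Ces1g are near 0 at 6 h and above 1 at 24 h.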

How the data were processed

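RNA was measured in 24 libraries of mouse small intestinal organoids, of which the 8 with dFz7-21 or Fz7-21S at 6 h were compared, grouped by their titles. The authors deposited, per the file headers, the count of reads aligned uniquely to each of 36528 gene models and an RPKM adjusted by a size factor. Per the submitters' processing notes, GSNAP and GRCm38 were used. The sources used here do not give the annotation, the strand of counting or any filter. RPKM entered no test and served to compare Frizzled levels. Genes with near-identical copies may be undercounted by unique alignment, and antisense reads cannot be told apart.

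Counts were tested with edgeR 4.0.16 (limma 3.58.1) in R 4.3.3 by the quasi-likelihood F test, with TMM factors and filterByExpr, which left 14537 genes. Benjamini-Hochberg adjustment ran over all of them, and an adjusted p below 0.05 was called. The scripts were tested on simulated data. CPM are TMM-normalised, except the floor of 3 counts and the marker sums, which use raw library totals, and errors are SD of 4 libraries or SE of log2 fold changes. Time was tested as an interaction over 16 libraries. Alternatives were RLE factors, no filter, DESeq2 1.42.0, a replicate block, 12 or all 24 libraries in the fit, a minimum fold of 1.2 and leaving out each library. Replicates of a group differed by more than sampling noise (chi-square divided by its degrees of freedom, 2.77 to 5.65), and no batch is labelled.

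The text names the 15 largest rises and 15 largest falls among called genes whose mean log2 CPM was 1 or more and whose groups did not overlap, a panel of 23 genes, the 3 members of each of 39 lists with the smallest p, members of counts of 5 or fewer, and the 5 strongest interactions each way. Other members named were chosen after their values were seen, and a few members of the lists are counted but not reported here by name. Members, panel and lists were chosen with earlier results of these data known. Of the IDs, 31049 were named through RefSeq and 78 through GENCODE, and the other 5401 held 2.56% to 2.72% of the counts.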

Additional observations from a re-analysis of the deposited data

Results flagged for a closer look

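In 14 of 280 sets of 4 values, 1 library stood far from the others, where chance gives about 1 in 20. With dFz7-21, replicate 1 stood high for Cdh17 (1714 CPM), Gsta4 (584 CPM), Ocln (346 CPM) and Tle4 (96.9 CPM). Replicate 3 stood high for Aldh1a3 (43.6 CPM), Anxa1 (239 CPM) and Tph1 (18.5 CPM) and low for Mki67 (192 CPM). With Fz7-21S, replicate 1 stood high for Aqp4 (21.8 CPM). Replicate 2 stood high for Lgr5 (44.3 CPM), Mcm6 (252 CPM) and Pdia4 (143 CPM), and replicate 4 for Agpat2 (123 CPM) and Pcdh8 (6.47 CPM).

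For 23 named genes the difference between the peptides changed from 6 h to 24 h by the interaction term. On the log2 scale it became more negative for Olfm4 (-4.02), Lgr5 (-2.53), Slc14a1 (-2.29), Cbs (-2.27), Clca3b (-1.72), the gene Cpm (-1.69), Tubb2b (-1.60), Nkd1 (-1.55), Angpt2 (-1.51) and Atp2c2 (-1.38). The same held by less for Id2 (-1.01), Smoc2 (-0.98), Axin2 (-0.92), Lyz1 (-0.78), Id1 (-0.77), Sp5 (-0.72), Rnf43 (-0.58) and Myc (-0.27). It became more positive for Ces1g (1.27), Alpi (1.17), Cyp4f40 (1.16), Vipr1 (1.05) and Naaladl1 (0.85).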

How the results depend on the processing

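The count of 3159 called genes at 6 h was 3170 with RLE factors, 3251 with no filter, 3076 with DESeq2 and 2824 with the 12 libraries at 6 h in the fit. It was 1086 (495 higher, 591 lower) with all 24 libraries in the fit and 312 (150 higher, 162 lower) at a minimum fold of 1.2. Leaving out 1 library gave 2461 to 3133 called, 1237 to 1565 higher and 1224 to 1568 lower. With a replicate block, 3912 genes were called. Same-numbered libraries deviated together with correlations of 0.045 to 0.088. These were the highest for dFz7-21 replicates 1, 2 and 4, while replicate 3 correlated best with Fz7-21S replicate 1 (0.053). On principal component 2 (14.4% of the variance) the replicates stood in the order 1, 3, 4, 2 in both groups. Whether libraries of the same number share a culture or batch is not labelled and was not tested. The fit reported here took no pairs. The interaction gave 1318 genes, 1306 with RLE factors, 1001 with no filter, 1287 with a replicate block and 998 to 3001 with 1 library left out, the highest without Fz7-21S replicate 4 at 24 h. The cause of these shifts was not tested. Of the values of named genes at 6 h under these alternatives, 1998 kept their side of the threshold, 96 (in 54 genes) lost the call and 5 (in 3 genes) gained it, and none changed direction. Mki67, Fn1 and Itgam were those that gained it. Among list counts 942 stayed within 1.5 times and 228 did not, mostly with all 24 libraries in the fit or the minimum fold. With all 24 libraries 10 sterol rises and 7 ribosome and Myc falls were called, and at the minimum fold none of either. Stem cell falls were 24 and 20 under these settings, and S phase falls 29 and 16. Genes under a few CPM are limited by depth, and changes near 1.1-fold rest on the small spread of these 4 and 4 libraries.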
